A study of Mus musculus with 6 samples.

Results

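The adhesion genes of the intercalated disc were examined in cardiomyocytes, the beating muscle cells of the heart, isolated from neonatal mice and kept in culture. Of the 54532 genes listed in the deposited table, 10 were selected by symbol. They are the desmosomal cadherins Dsg2 and Dsc2, the desmosomal plaque proteins Dsp, Pkp2 and Jup, the adherens junction genes Cdh2, Ctnna3 and Ctnna1, the scaffold Tjp1 and the disc membrane protein Tmem65. The cells came from mice with an engineered Rit1 locus (Rit1 LoxP-M90I), at which Cre recombinase switches on expression of M90I, a pathogenic variant of the RAS-related GTPase RIT1. On day 3 of culture the cells received an adenovirus encoding GFP alone (AdGFP, labeled Rit1 +/+) or GFP together with Cre (AdCre, labeled Rit1 M90I/+). Each group held 3 samples, labeled as biological replicates 1 to 3. Both groups therefore carried the engineered locus, an adenovirus and GFP. No AdCre sample came from cells with an unmodified Rit1 locus, and the effects of the variant and of the recombinase cannot be told apart. By the study's methods, hearts were digested, cells that stuck to a plastic dish were removed, and the rest were plated at about 1 heart per well, so a sample need not be a single animal. Cre was delivered to whatever cells the virus entered, and its delivery was not limited to myocytes.

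The intercalated disc is the specialized contact at which one cardiomyocyte is joined end to end with the next. Desmosomes there link the cells through the desmosomal cadherins, whose tails bind plakoglobin (Jup) and plakophilin (Pkp2), and these bind desmoplakin (Dsp), which holds the intermediate filaments. Adherens junctions use N-cadherin (Cdh2) and the catenins to hold the actin filaments of the sarcomere. In the heart both kinds of contact mix into one structure, the area composita, in which the alpha-catenin encoded by Ctnna3 binds plakophilin 2. Inherited variants in desmosomal genes are a known cause of arrhythmogenic cardiomyopathy.

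Reads were worked back from the deposited FPKM (fragments relative to exon length and to a library size set by the authors). They came to between 25.28 and 26.55 megareads per AdGFP sample and between 25.98 and 32.43 megareads per AdCre sample. All 10 genes passed the filter of a mean of at least 0.5 FPKM, as did 13794 genes in all. The lowest number of reads behind any of their values was 52, for Ctnna3 in AdCre replicate 1. The culture was checked against markers. All 16 cardiomyocyte markers, among them Tnnt2, Myh6 and Actn2, were present in every sample, with a summed level between 5615 and 9830 FPKM in AdGFP and between 3203 and 5010 FPKM in AdCre. Markers of fibroblasts summed to between 2411 and 4766 FPKM over the 6 samples, so the cultures were not made of myocytes alone. In bulk RNA, fewer myocytes and less RNA per myocyte cannot be told apart.

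Promoter sequence from RefSeq (GRCm38.p6) was matched for 4 of the 10 genes. The 250 bases before a start site are shown for each of these, because they include the gene with the largest difference between the groups (Ctnna3), a plaque gene that fell (Dsp), a plaque gene that did not pass (Jup) and a gene whose values interleaved between the groups (Tjp1). Capitals mark the letters GGGCGG on either strand, the GC box.
Ctnna3, chr10:63429848-63430097, plus strand: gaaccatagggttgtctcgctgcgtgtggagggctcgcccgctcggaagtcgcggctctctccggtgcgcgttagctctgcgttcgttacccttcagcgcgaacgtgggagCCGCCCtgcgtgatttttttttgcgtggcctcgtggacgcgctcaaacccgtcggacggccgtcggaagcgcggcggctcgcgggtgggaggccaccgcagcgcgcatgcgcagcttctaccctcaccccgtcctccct
Dsp, chr13:38151044-38151293, plus strand: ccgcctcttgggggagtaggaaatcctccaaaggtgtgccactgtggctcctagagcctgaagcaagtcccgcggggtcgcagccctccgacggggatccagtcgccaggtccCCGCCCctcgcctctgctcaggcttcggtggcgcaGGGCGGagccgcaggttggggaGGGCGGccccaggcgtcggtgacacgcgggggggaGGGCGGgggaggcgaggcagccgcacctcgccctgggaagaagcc
Jup, chr11:100397791-100398040, minus strand: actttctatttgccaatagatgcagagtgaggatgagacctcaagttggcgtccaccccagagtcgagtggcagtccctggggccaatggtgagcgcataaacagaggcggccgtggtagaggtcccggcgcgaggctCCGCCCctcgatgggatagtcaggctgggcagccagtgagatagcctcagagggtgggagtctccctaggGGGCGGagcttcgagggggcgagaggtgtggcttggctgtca
Tjp1, chr7:65371245-65371494, minus strand: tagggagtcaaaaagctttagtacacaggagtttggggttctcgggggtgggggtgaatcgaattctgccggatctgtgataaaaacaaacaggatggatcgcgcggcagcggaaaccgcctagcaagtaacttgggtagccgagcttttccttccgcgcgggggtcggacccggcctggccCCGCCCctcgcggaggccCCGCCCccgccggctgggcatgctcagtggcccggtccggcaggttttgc
The GC box occurred 1 time in the Ctnna3 window, 4 times in Dsp, 2 times in Jup and 2 times in Tjp1. It was found in 33.0% of 32536 windows of the same length from all genes. The windows had a GC content of 67.6%, 72.4%, 62.0% and 63.2%, where the median of all windows was 52.4%. None of the 4 windows shown held TATAAA (in 12.3% of all windows), AGATAA, the GATA core (9.97%), GGAATG, the TEAD core (12.6%), TGANTCA, the AP-1 element (6.73%), or matches to the MEF2 (0.513%) and SRF (1.48%) motifs, each searched on both strands. For Ctnna3 the first of 3 annotated starts is shown. The windows of the other two held no GC box and had a GC content of 44.8% and 45.6%, and 1 of them held GGAATG and the other TATAAA. The Tjp1 start lies inside the longer gene model of GENCODE.

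Transcripts of 9 of the 10 genes had a lower mean in AdCre. Their change in mean lay between -12.1% (Jup) and -71.7% (Ctnna3), and Tjp1 differed by 3.3%. Of all 13794 genes tested, 6952 had a log2 fold change below 0. Without pairing, 0 of the 10 passed an adjusted p of 0.05 (limma, Benjamini-Hochberg over 13794 genes), where 0.00725% of all genes passed. The unadjusted p was under 0.05 for 7, all lower in AdCre, against 5.45% of all genes. In these 7 the AdCre samples all lay below the AdGFP samples, as in 8.02% of all genes, and none lay above without overlap (7.36% of all genes did). Same-numbered samples of the groups deviated together across genes, so the replicate number was also fitted as a block. With the block 6 genes passed as lower (Dsg2, Dsc2, Dsp, Pkp2, Ctnna3 and Tmem65) and 0 as higher, where 3.51% and 2.64% of all genes did. Either direction together made 6.15% of all genes, 364 higher and 484 lower, a split that was 538 and 337 after rescaling to TPM and 479 and 396 with the authors' library scaling undone. The count of adhesion genes that fell was 4 without pair 1, 1 (Dsg2) without pair 2 and 0 without pair 3, and it was also 0 when the mean-variance trend of limma or the filter on low values was left out. Few genes of any kind passed in the fits with a count of 0. They numbered 1 of 13794 lacking pair 3, 0 of 13794 lacking the trend and 17 of 28445 lacking the filter. Neither the trend nor the filter can alter a log2 fold change, only its p-value. With the block the log2 fold changes of the 6 genes ran from -1.54 (Ctnna3) to -0.37 (Dsp) without pair 1. They ran from -2.04 to -0.36 without pair 2 and from -1.59 to -0.35 without pair 3 (Ctnna3 and Tmem65). "Fell" and "rose" are used here for genes that passed with the block.

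**Figure D1:**
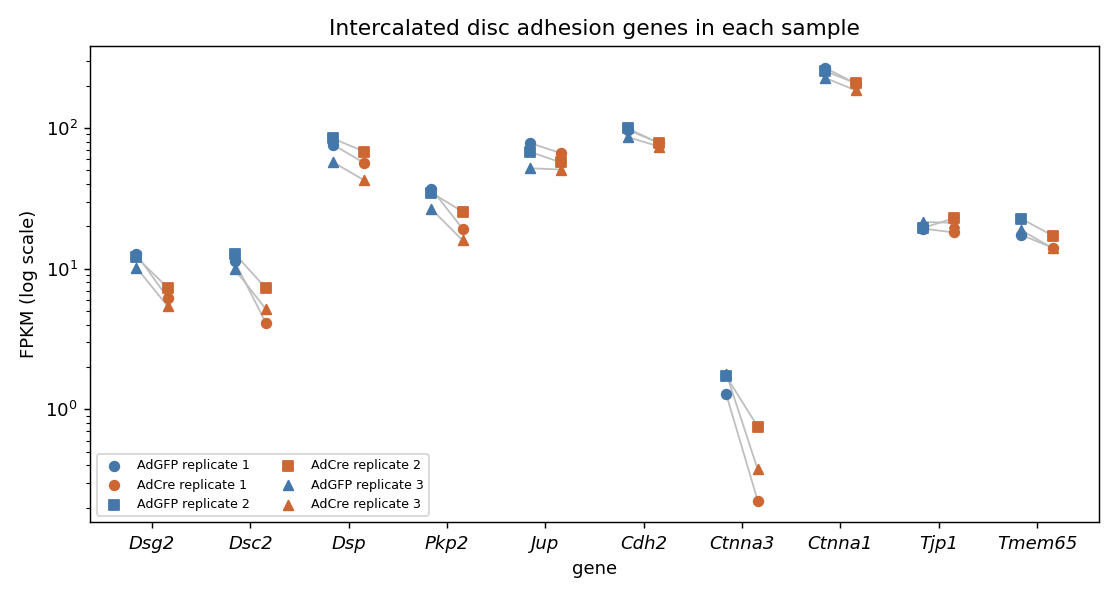
FPKM of the 10 adhesion genes in each of the 6 samples (log scale), with AdGFP in blue, AdCre in orange, and a gray line joining the samples with the same replicate number. The lines slope down in all 3 pairs for 9 genes, most steeply for Ctnna3, and Tjp1 goes up in 1 pair. Of all genes tested 24.5% were lower in all 3 pairs.

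Both desmosomal cadherins, which form the adhesive part of the desmosome, fell in AdCre. Dsg2 (ENSMUSG00000044393, chromosome 18, 20558074 to 20604521, GRCm38), which encodes desmoglein 2, was at 12.7, 12.1 and 10.2 FPKM in AdGFP 1 to 3 and at 6.21, 7.33 and 5.41 FPKM in AdCre 1 to 3. Every AdCre sample lay below every AdGFP sample. The means were 11.7 ± 1.32 and 6.32 ± 0.963 FPKM (SD, n = 3 each), or -0.88 ± 0.16 (SE) as log2 fold change (limma adjusted p 0.174 unpaired, 0.0151 with the block). Dsc2 (ENSMUSG00000024331, chromosome 18, 20030633 to 20059554), encoding desmocollin 2, was at 11.3, 12.8 and 9.96 FPKM in AdGFP and at 4.1, 7.25 and 5.14 FPKM in AdCre. Again the groups did not overlap, and AdCre replicate 1 was the lowest. Its log2 fold change came to -1.06 ± 0.22 (SE) (limma adjusted p 0.226 unpaired, 0.0217 with the block). Within a library the ratio of Dsg2 to Dsc2 was 1.13, 0.941 and 1.02 in AdGFP and 1.51, 1.01 and 1.05 in AdCre. The groups overlapped in this ratio (log2 difference 0.19 ± 0.2 (SE), exact two-sided permutation p = 0.5, adjusted p = 0.5 over 3 ratios). That difference was 0.00 without AdCre replicate 1.

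Dsg2 and Dsc2 were the desmoglein and desmocollin of the highest level. Of 12 other desmosome genes, most of them epidermal, 8 were below the filter. Dsc3 reached 0.676 FPKM in AdGFP replicate 3 and Dsg3 0.504 FPKM, also in AdGFP replicate 3. Dsg1a, Dsg1b, Dsg1c, Dsg4 and Dsc1 did not exceed 0.203 FPKM in any sample, and Evpl reached 0.712 FPKM (these 8 were named after their values were seen).

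In the desmosomal plaque, Pkp2 and Dsp fell and Jup did not pass. Pkp2 (ENSMUSG00000041957, chromosome 16, 16213318 to 16272712), encoding plakophilin 2, was at 37.1, 34.8 and 26.6 FPKM in AdGFP and at 19.2, 25.4 and 15.9 FPKM in AdCre. The groups did not overlap, although AdGFP 3 and AdCre 2 lay close together. Its log2 fold change came to -0.71 ± 0.21 (SE) (limma adjusted p 0.334 unpaired, 0.0286 with the block). Dsp (ENSMUSG00000054889, chromosome 13, 38151294 to 38198577) encodes desmoplakin, which anchors desmin filaments at the disc. It was at 76.3, 84.3 and 57.4 FPKM in AdGFP and at 56.3, 67.9 and 42.4 FPKM in AdCre. Here AdCre 2 lay above AdGFP 3, so the groups overlapped, while the log2 difference within a pair was close to constant at -0.44, -0.31 and -0.44. The log2 fold change came to -0.40 ± 0.22 (SE) (limma adjusted p 0.623 unpaired, 0.0397 with the block). It was -0.21 without AdCre replicate 3 and -0.56 without AdGFP replicate 3. Dsp passed in 3 of the 10 fits with the block, and not when any pair was left out. Its log2 fold change with the block was -0.37, -0.44 and -0.37 without pairs 1, 2 and 3. Of the exon bases of Dsp 5.2% are also covered by an antisense gene, and whether counting used strand is not given in the sources used here.

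Jup (ENSMUSG00000001552, chromosome 11, 100368958 to 100397763) encodes plakoglobin, the catenin shared by desmosomes and adherens junctions. It was at 78.4, 67.8 and 51.8 FPKM in AdGFP and at 66.3, 57.0 and 50.7 FPKM in AdCre, and the groups overlapped. Its log2 fold change of -0.17 had a 95% interval from -0.62 to 0.27 (limma adjusted p 0.836 unpaired, 0.251 with the block). The difference within pair 3 was -0.03. Single libraries set its size. Leaving out AdGFP replicate 1 gave a log2 fold change of -0.04 and leaving out AdGFP replicate 3 gave -0.34, while the fit lacking AdCre replicate 1 gave -0.27 and that lacking AdCre replicate 3 gave -0.08. Its paralog Ctnnb1, encoding beta-catenin, averaged 99.4 ± 4.96 FPKM in AdGFP against 111 ± 9.85 in AdCre (SD, n = 3 each), also with overlap. The ratio of Jup to Ctnnb1 in a library was 0.802, 0.71 and 0.493 in AdGFP and 0.572, 0.569 and 0.43 in AdCre. It was lower in AdCre in all 3 pairs, and the groups overlapped (log2 difference -0.34 ± 0.25 (SE), exact two-sided permutation p = 0.3, adjusted p = 0.45). Without AdGFP replicate 1 this difference was -0.19, without AdCre replicate 3 it was -0.20, and without AdGFP replicate 3 it was -0.54. Of the exon bases of Ctnnb1 14.6% lie opposite an antisense gene.

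The adherens junction genes differed widely in level and in the size of the difference between the groups. Cdh2 (ENSMUSG00000024304, chromosome 18, 16588877 to 16809246), encoding N-cadherin, was at 96.8, 99.3 and 86.1 FPKM in AdGFP and at 78.3, 77.9 and 73.9 FPKM in AdCre. The groups did not overlap, and the AdCre samples lay close together. Its log2 fold change came to -0.29 ± 0.12 (SE) (limma adjusted p 0.468 unpaired, 0.0742 with the block). Ctnna1 (ENSMUSG00000037815, chromosome 18, 35118859 to 35254779), encoding alpha-E-catenin, the form used by most cells, was at 269, 255 and 228 FPKM in AdGFP and at 207, 208 and 185 FPKM in AdCre. These groups did not overlap either, and the log2 fold change came to -0.32 ± 0.14 (SE) (limma adjusted p 0.49 unpaired, 0.0629 with the block). The values of Cdh2 and Ctnna1 were lower in AdCre in all 3 pairs, as were those of 24.5% of all genes tested.

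Ctnna3 (ENSMUSG00000060843, chromosome 10, 63430098 to 65003667), the alpha-T-catenin of heart and testis, had the lowest level and the largest change of the 10. It was at 1.28, 1.72 and 1.8 FPKM in AdGFP and at 0.225, 0.755 and 0.375 FPKM in AdCre. These values rested on 228, 315 and 320 reads and on 52, 141 and 75 reads. The groups did not overlap. The means were 1.6 ± 0.28 and 0.452 ± 0.274 FPKM (SD, n = 3 each), or -1.72 ± 0.4 (SE) as log2 fold change (limma adjusted p 0.261 unpaired, 0.0322 with the block). With a pseudocount of 1 FPKM in place of 0.1 the log2 fold change was -0.85, because a pseudocount above or near the level itself shrinks a fold. Ctnna3 made up 0.472%, 0.671% and 0.781% of the FPKM of Ctnna1 and Ctnna3 together in AdGFP and 0.109%, 0.361% and 0.202% in AdCre. The log2 ratio of Ctnna3 to Ctnna1 was lower in every AdCre sample, by -1.40 ± 0.45 (SE; exact two-sided permutation p = 0.1, the smallest that 3 samples against 3 allow, adjusted p = 0.3). With a pseudocount of 1 FPKM that difference was -0.53.

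Tjp1 and Tmem65 are a scaffold and a membrane protein of the disc. Tjp1 (ENSMUSG00000030516, chromosome 7, 65296165 to 65527781), encoding zonula occludens 1, which binds actin and the gap junction protein connexin 43, was at 19.3, 19.5 and 21.5 FPKM in AdGFP and at 18.1, 22.9 and 21.2 FPKM in AdCre. Highest and lowest values were both in AdCre. Its log2 fold change was 0.04 with a 95% interval from -0.26 to 0.34, or from -0.18 to 0.27 with the block (limma adjusted p 0.961 unpaired, 0.823 with the block). Its sign was not fixed, being -0.03 without AdCre replicate 2. Tmem65 (ENSMUSG00000062373, chromosome 15, 58782269 to 58823638), a membrane protein found at the disc together with connexin 43, was at 17.4, 22.7 and 18.8 FPKM in AdGFP and at 14.1, 17.2 and 14.0 FPKM in AdCre. The groups did not overlap, although AdGFP 1 and AdCre 2 were almost equal. Its log2 fold change came to -0.38 ± 0.15 (SE) (limma adjusted p 0.466 unpaired, 0.0484 with the block). Tmem65 passed in 2 of the 10 fits with the block, and not when any pair was left out. Its log2 fold change with the block was -0.42, -0.36 and -0.35 without pairs 1, 2 and 3.

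**Figure D2:**
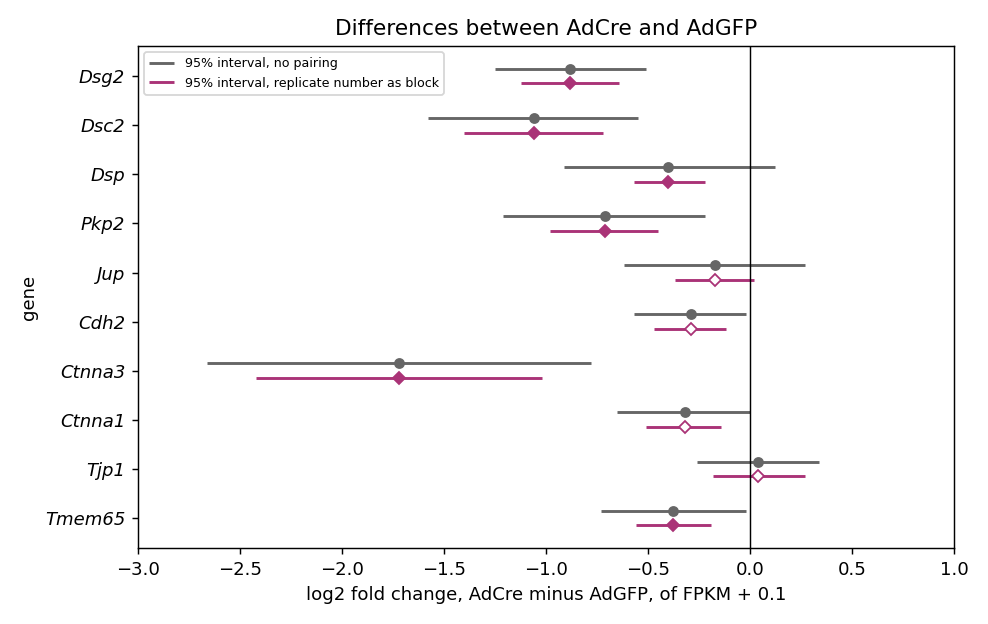
Log2 fold change of FPKM + 0.1 (AdCre minus AdGFP) for each gene, with 95% intervals from the fit without pairing (gray) and with the replicate number as a block (purple, filled where the adjusted p was under 0.05). The intervals with the block are the narrower ones for all 10 genes, and the 6 filled points run from -1.72 (Ctnna3) to -0.38 (Tmem65).

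The order of levels was almost the same in both groups, and FPKM allows it to be read between genes because it is per length. In AdGFP, Ctnna1 (251 FPKM) stood above Cdh2 (94.1), followed by Dsp (72.7), Jup (66.0), Pkp2 (32.8), Tjp1 (20.1), Tmem65 (19.6), Dsg2 (11.7), Dsc2 (11.4) and Ctnna3 (1.6). The neighbors Dsp and Jup, Tjp1 and Tmem65, and Dsg2 and Dsc2 overlapped in their values, whereas the other neighbors did not. In AdCre, Jup (58.0 FPKM) had a higher mean than Dsp (55.5) and Tjp1 (20.8) than Pkp2 (20.2), and in both cases the values overlapped. Cdh2 exceeded Dsg2 by 7.6, 8.23 and 8.44 times in AdGFP and by 12.6, 10.6 and 13.7 times in AdCre, a ratio that was chosen after the values were seen.

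Each gene was also set beside the cardiomyocyte markers of its own library. All 16 markers had a lower mean in AdCre, with a median log2 fold change of -0.84, where the median over all genes was -0.002. Of these markers 9 passed with the block, among them Actn2, Myoz2 and Mybpc3. Their mean log2 level was 7.61, 7.28 and 6.94 in AdGFP and 6.56, 6.78 and 6.12 in AdCre. Relative to that mean, Dsg2 differed between the groups by -0.09 ± 0.13, Dsc2 by -0.27 ± 0.28 and Pkp2 by 0.08 ± 0.09 on the log2 scale (SE, n = 3 each). In these 3 genes the groups overlapped, with exact two-sided permutation p-values of 0.7, 0.5 and 0.5. These small differences hung on single libraries, since that of Dsg2 was -0.19 without AdGFP replicate 1 and -0.01 without AdGFP replicate 3. That of Dsc2 was -0.44 without AdGFP replicate 1 and -0.05 without AdCre replicate 1. That of Pkp2 was 0.01 without AdGFP replicate 1 and 0.14 without AdCre replicate 1. Within pairs 1 to 3, Dsc2 was lower each time (-0.38, -0.31 and -0.12) and Dsg2 changed sign (0.03, -0.21 and -0.08). Pkp2 was higher each time (0.11, 0.05 and 0.08), as were 88.9% of all genes. Ctnna3 was lower than the markers by -0.93 ± 0.49 with overlap (exact permutation p = 0.2), and lower in all 3 pairs (-1.03, -0.58 and -1.17). With a pseudocount of 1 FPKM this difference was -0.08, and it was -0.57 without AdCre replicate 1.

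The other genes, like Pkp2, were higher in AdCre relative to the markers, by larger amounts. Relative to the marker mean, Tjp1 was higher in AdCre by 0.84 ± 0.32, Jup by 0.62 ± 0.16, Cdh2 by 0.50 ± 0.23, Ctnna1 by 0.47 ± 0.19 and Dsp by 0.40 ± 0.14 (log2, SE). These 5 showed no overlap of the groups, which gives an exact two-sided permutation p of 0.1, the smallest possible, and an adjusted p of 0.2 over the 10 genes. Of all genes tested 57.0% lay above the markers in this way, so 5 of 10 is near the background. The count was 1 when the median of the markers replaced their mean, with 35.6% of all genes above. Tmem65, at 0.42 ± 0.29, was higher in all 3 pairs with overlap of the groups (exact permutation p = 0.2), and was at 0.16 without AdGFP replicate 1 and 0.28 without AdCre replicate 3. Markers of other cells were also measured, and their summed levels overlapped between the groups. The summed level of endothelial markers ran from 104 to 157 FPKM in AdGFP and from 148 to 217 FPKM in AdCre, that of macrophage markers from 49.7 to 273 and from 88.4 to 345 FPKM, and that of fibroblast markers from 2690 to 4766 and from 2411 to 3468 FPKM. Of 12 endothelial markers 10 had a higher mean in AdCre, as did 8 of 8 macrophage markers tested and 3 of 11 fibroblast markers tested, and of macrophage markers Cd163 was under 0.1 FPKM in every sample. With the block 4 endothelial and 2 macrophage markers passed as higher, and of the fibroblast markers 1 passed as higher and 3 as lower. The part of these cells in the values of genes that other cells also express was not tested.

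**Figure D3:**
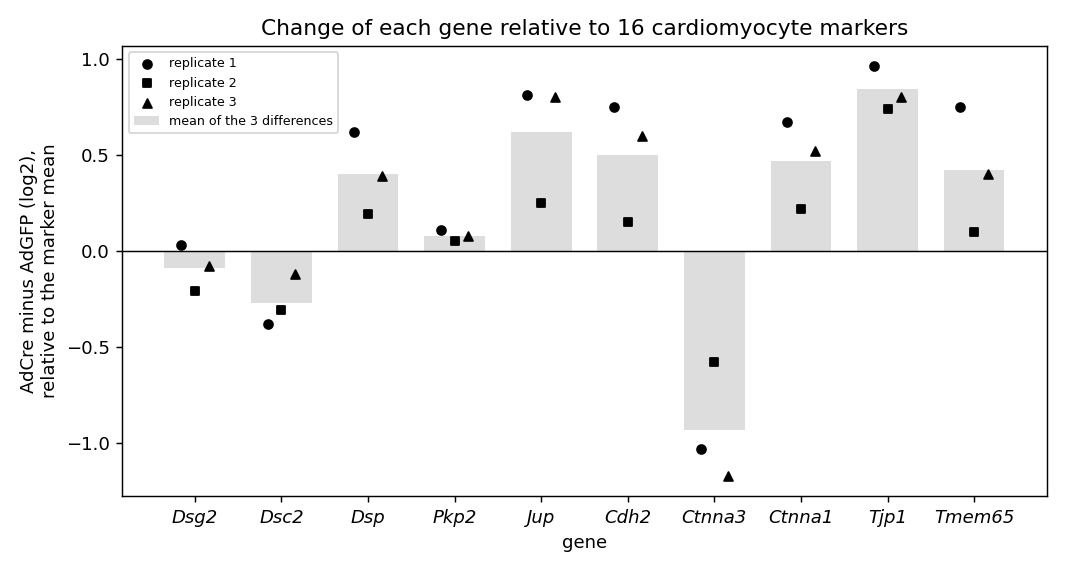
Difference between AdCre and AdGFP of each gene after subtracting the mean log2 level of 16 cardiomyocyte markers in the same library, for each replicate number (points) and their mean (bars). Dsg2, Dsc2 and Pkp2 lie between -0.38 and 0.11, and Dsg2 lies on both sides of 0. Dsc2 and Ctnna3 lie below 0 in every pair, and the other 7 genes lie above 0 in every pair, as did 88.9% of all genes.

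Other genes of cell junctions were taken from 4 lists, 56 genes in all, of which 41 could be tested. Without pairing 0 passed, while 10 had an unadjusted p under 0.05 (7 lower and 3 higher), where 10.2% of all genes had. With the block 8 passed as lower and 2 as higher, beside 3.51% and 2.64% of all genes. Those counts were 2 and 0 without pair 2, and both were 0 without pair 3, without the mean-variance trend or without the filter on low values. Among 26 partners of the adherens junction and the area composita, 21 had a lower mean in AdCre, with a median log2 fold change of -0.17. With the block 6 fell, which were Actn2 (-1.05, limma adjusted p with the block 0.0181), Ldb3 (-0.62, 0.0269), Lmo7 (-0.61, 0.0354), Nrap (-0.78, 0.0364), Xirp1 (-0.77, 0.0448) and Pkp4 (-0.37, 0.0492). Of these Lmo7, Nrap and Xirp1 were named after their values were seen. Actn2 encodes the alpha-actinin of the Z-disc and is also one of the cardiomyocyte markers above.

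Of the 26 partners 4 were lower and 2 higher in AdCre without overlap of the groups, as 8.02% and 7.36% of all genes were, and some of these did not pass with the block. Cxadr, an adhesion receptor of the disc that is also the receptor for adenovirus, was at 18.2, 18.7 and 22.4 FPKM in AdGFP and at 15.0, 13.7 and 12.2 FPKM in AdCre (log2 fold change -0.53, limma adjusted p with the block 0.0702). The p120-catenin relative Arvcf went from 8.3 ± 0.254 to 6.12 ± 0.52 FPKM (n = 3 each, 0.0634 with the block). The nectin gene Nectin1 went in the other direction, from 5.57 ± 0.484 to 7.74 ± 0.446 FPKM (n = 3 each, 0.0608 with the block). Vcl, which encodes vinculin and ties alpha-catenin to actin, had a log2 fold change of -0.10 and did not pass (limma adjusted p with the block 0.461). Of the exon bases of Vcl 25.5% lie opposite an antisense gene, as do 9.5% of those of Cxadr and 20.6% of those of Tbx18, a marker named below.

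Of the 4 other desmosome genes tested, 3 had a higher and 1 a lower mean in AdCre, and 1 passed with the block. Ppl, encoding periplakin, a plakin of epithelial desmosomes, was at 0.382, 0.395 and 0.912 FPKM in AdGFP and at 1.53, 1.15 and 2.26 FPKM in AdCre, and rose with the block (log2 fold change 1.44, limma adjusted p 0.32, and 0.0288 with the block). The plakophilins Pkp1 and Pkp3 had log2 fold changes of 0.80 and 1.13 and did not pass (0.0988 and 0.144 with the block), nor did Perp (-0.29, 0.302). In AdCre, Pkp2 was at 20.2 ± 4.81 FPKM against 2.94 ± 0.747 for Pkp1 and 1.27 ± 0.321 for Pkp3 (n = 3 each). Epithelial and mesothelial markers in the same cultures moved in both directions. Krt8 went from 48.4 ± 26.4 to 123 ± 30.7 FPKM and Krt18 from 107 ± 42.3 to 189 ± 16.4 FPKM (0.0269 and 0.0432 with the block), while Tbx18 went from 19.0 ± 0.581 to 13.8 ± 0.964 FPKM (0.0441). Of the 12 markers in that list 6 had a higher and 6 a lower mean in AdCre, and their part in the level of Ppl was not tested. Of the 50-base stretches of the Krt8 transcripts 26.9% also occur in other genes, which makes its level uncertain.

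Of the other classical cadherins and their relatives, 7 of 14 could be tested. The P-cadherin gene Cdh3 fell, from 13.3, 16.3 and 22.4 FPKM in AdGFP to 7.41, 8.09 and 14.5 FPKM in AdCre (log2 fold change -0.82, limma adjusted p 0.0191 with the block). Cdh5, the cadherin of endothelial cells, rose from 18.8 ± 5.67 to 25.5 ± 8.81 FPKM (n = 3 each, log2 fold change 0.42, 0.0365 with the block). Both overlapped between the groups and moved the same way in all 3 pairs. Cdh1, the epithelial E-cadherin gene, ran from 0.301 to 6.42 FPKM within AdGFP and from 0.874 to 8.92 FPKM within AdCre. In the list of gap junction and channel genes of the disc, Gja1, encoding connexin 43, was at 92.4, 130 and 90.6 FPKM in AdGFP and at 45.3, 86.3 and 41.4 FPKM in AdCre. It fell with the block (log2 fold change -0.92, limma adjusted p 0.374, and 0.0214 with the block), and the connexin genes Gjc1 and Gja5 did not pass (0.137 and 0.938).

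**Figure D4:**
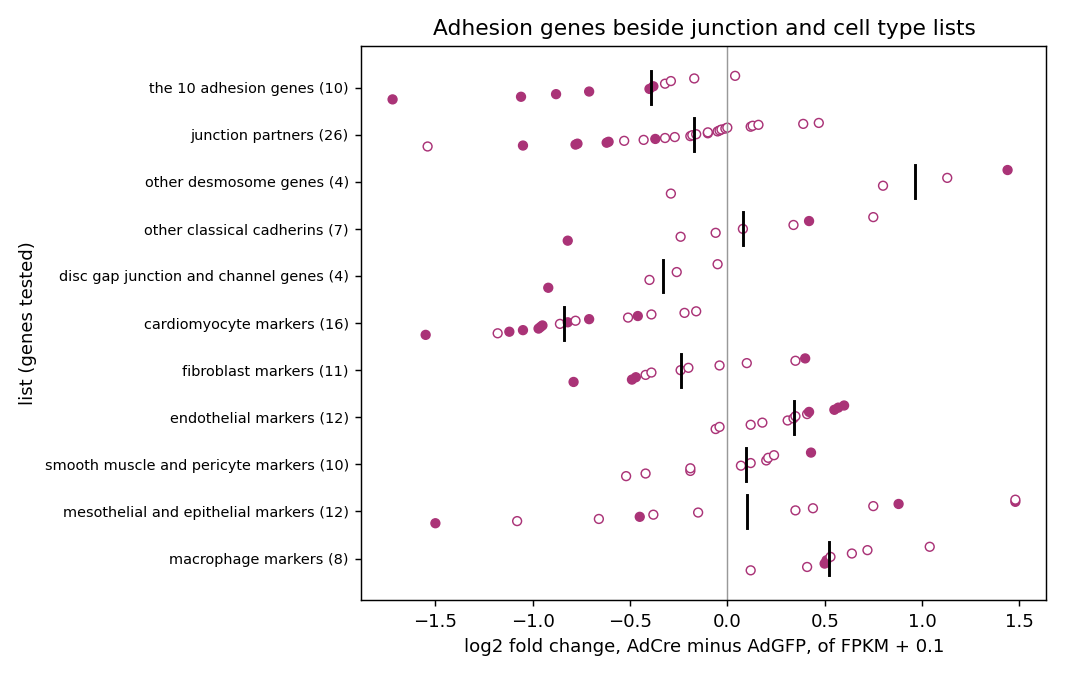
Log2 fold changes of FPKM + 0.1 (AdCre minus AdGFP) for the 10 adhesion genes and for each junction and cell type list, 1 point per gene tested, filled where the adjusted p with the block was under 0.05, with the list median as a black bar. The median of the adhesion genes is -0.39, between that of the cardiomyocyte markers (-0.84) and those of the junction partners (-0.17) and endothelial markers (0.34).

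Genes with the most similar pattern over the 6 samples were found by the root mean square difference of log2 values after each gene was centered on its mean. For Dsg2 these were Sh3kbp1 (0.0454), Lrrc2 (0.0497) and Pde4dip (0.057). Of the adhesion genes Pkp2 came closest to Dsg2, at 0.12 and rank 17 of the tested genes, and Dsc2 followed at 0.217 and rank 169. For Ctnna3 the closest were Bche (0.154), Gm40649 (0.175) and Gm14890 (0.176), with Dsc2 the closest adhesion gene at 0.417 and rank 41. For Tjp1 they were Vhl (0.0287), Tmem47 (0.031) and Ccnt1 (0.0316), and its closest adhesion gene, Cdh2, stood at rank 5396.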

How the data were processed

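RNA-seq was performed on poly-T-selected messenger RNA copied with random primers, in 3 AdGFP and 3 AdCre samples grouped by their titles. The deposited values are FPKM, made by the authors with 1 column per sample and no pooling. The submitters' processing notes list fastp, STAR 2.5, HTSeq 0.6.1 and mm10. The annotation, the strand setting and a test are not given in the sources used here. Of 54532 gene IDs, 54495 were matched to GENCODE M21 (GRCm38), which gave symbols, coordinates and exon lengths.

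FPKM times exon length was a whole multiple of 1 step per sample (within 0.05 reads) for between 96.61% and 96.75% of values above 0, and for 9 of the 10 adhesion genes in every sample (Ctnna1 was not). These multiples were taken as reads. Values were tested as log2(FPKM + 0.1). Every log2 fold change is on this scale unless another pseudocount is named, and a low gene appears to change less on it. Percent changes are of mean FPKM. limma 3.58.1 (R 4.3.3; lmFit, eBayes with trend) was fitted to the 13794 genes that averaged 0.5 FPKM or more, with Benjamini-Hochberg adjustment over all of them and a call at an adjusted p under 0.05. Within-library ratios were tested by exact two-sided permutation, which cannot give less than 0.1. The replicate number as a block was an alternative fit. Deviations from the group means correlated at 0.568, 0.268 and 0.506 between samples numbered 1, 2 and 3, and pairing by number rests on these values alone, because the labels do not say what a number marks. Within a group no library was a repeat of another, since the chi-square per degree of freedom between replicates was at least 44.2. The labels call them biological replicates without naming animals or cultures, so unpaired p-values measure the spread between these samples. With the block, p-values measure the spread of the differences between same-numbered samples.

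The genes and lists were chosen with earlier results of these data known. Named were the 10 genes, at most 6 genes of each junction list and 3 of each marker list with the smallest unadjusted p, Ctnnb1, Vcl and Cxadr, and the 3 nearest patterns of Dsg2, Tjp1 and Ctnna3. Alternatives changed the pseudocount, filter, scaling, trend, block, limma voom on the recovered reads with TMM factors and the samples included. Some genes that this rule names are not reported here. Python 3.11.15 was used for summaries.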

Additional observations from a re-analysis of the deposited data

How the results depend on the processing

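Without pairing, 0 of the 10 adhesion genes and 0 of the 41 junction genes tested passed under any of 16 alternatives to the reported limma fit, leaving out each sample included (between 4 and 7 adhesion genes had an unadjusted p under 0.05, where between 5.68% and 11.8% of all genes had). The replicate block changed this. With the block, adhesion genes called lower numbered 6, and 4 after rescaling to TPM, 5 after median centring, 8 with voom on the recovered reads (Cdh2 and Ctnna1 in addition), 4 with the library scaling of the authors undone (an alternative added after seeing the data), 4 without pair 1 and 1 without pair 2. The count was 0 with the block without trend, without a filter on low values or without pair 3 (8, 8 and 9 at an unadjusted p under 0.05, beside 3122 of 13794, 4199 of 28445 and 2531 of 13794 genes in all), fits in which 0, 17 and 1 of all genes were called. Over all genes those called lower numbered 484 with the block, 337 with TPM, 420 with median centring, 850 with voom, 396 with the scaling undone, 466 without pair 1 and 102 without pair 2. No adhesion gene was called higher. Junction genes called lower in these fits numbered 8 with the block, 7 with TPM, 7 with median centring, 11 with voom, 7 with the scaling undone, 8 without pair 1 and 2 without pair 2, and those called higher 2, 4, 2, 6, 4, 2 and 0. Both counts were 0 with the block without trend, without a filter on low values or without pair 3. The causes of these shifts were not tested.

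The log2 fold change of Tjp1 turned to -0.05 with the block without pair 2 and to -0.03 without AdCre replicate 2, and without single samples ran from -0.03 to 0.14. No other adhesion gene changed sign under any alternative. The number of adhesion genes above the cardiomyocyte markers without overlap was 5, between 5 and 7 when each sample was left out, and 1 with the median of the markers, where 57.0%, between 57.8% and 81.6%, and 35.6% of all genes lay above. With the block, 7 lay above in all 3 pairs, as did 88.9% of all genes. The block, as an exact sign-flip test of 3 pairs, cannot give less than 0.25 for the ratios and changed no call there. Depth limits Ctnna3, whose lowest value rests on 52 reads, more than the other 9 genes, which had at least 693 reads in every sample.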
